A study of Mus musculus with 16 samples.

Results

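The comparison described here set the amygdala of stressed mice 8 days after a single immobilization against the amygdala of stressed mice 6 days after it. The samples were chosen by their titles: 8 of the 16 samples of the series, 4 at day 8 (samples 9 to 12) and 4 at day 6 (samples 1 to 4). Total RNA of bilateral 1 mm punches from male mice 10 weeks old was measured on Illumina BeadArrays with 45281 probes. Both groups had been immobilized for 2 hours and were sampled under basal conditions. Mice without stress, labelled with the same days, gave 4 further samples at day 8 (samples 13 to 16) and 4 at day 6 (samples 5 to 8). The labels name no strain, slide or batch, and whether the samples came from different animals is not stated. The p-values therefore rest on the variation among the arrays at hand, which may be technical.

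The amygdala is a group of nuclei in the temporal lobe that links sensory cues to fear and anxiety responses. Its central nuclei hold mainly inhibitory neurons that border the striatum, and its basolateral nuclei hold mainly glutamatergic neurons. Immobilization is a strong stressor in rodents that activates the release of corticotropin-releasing hormone and of glucocorticoids. The comparison asks how the stressed tissue at the later day differed from the stressed tissue at the earlier one.

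The authors deposited 2 tables of intensities that did not hold the same columns, and this bears on every value. In the table keyed by sample accession, the rows carry the probe IDs used here. In the other table, the columns are headed by sample number, and the listed probe IDs were sorted apart from the intensities. Only 4 columns were common to both, and under different names: the columns headed SAMPLE 13 to SAMPLE 16 held the values of samples 1 to 4 of the sample-keyed table. The 12 remaining headed columns matched no column of the sample-keyed table. The 4 common columns tied all 45281 rows of the other table to probe IDs by value, and the listed ID was the right one for 1 row. Each of the 16 nameless detection p columns of the other table fell most closely with a different column of the sample-keyed table, and the column of the same number was the best match for 16 of the 16. Those rank correlations were -0.967 at the weakest. The headed intensities of the same rows gave 0.0081 to 0.0909, the 4 common columns included. They stand in another row order, so this range does not bear on which columns are right. Because of the match by column number, the sample-keyed table was used for the main comparison. The columns headed SAMPLE 9 to SAMPLE 12 against SAMPLE 1 to SAMPLE 4 are given after it as a second version. Which table holds the values of the labelled mice cannot be settled from the files.

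Several arrays of the sample-keyed table stood apart from their groups. The Pearson correlation of an array's log2 intensities, across probes, with the mean of the remaining arrays of its group was 0.962 to 0.973 for the 4 stressed day 8 arrays. Among the stressed day 6 arrays it was 0.594 for sample 1, 0.878 for sample 2, 0.902 for sample 3 and 0.905 for sample 4. Samples 3 and 4 correlated at 0.972 and 0.971 with the mean of all 15 other arrays, sample 2 at 0.907 and sample 1 at 0.601. Sample 1 was also dim where other arrays were bright: of 1273 probes whose median in the other 15 arrays was above 1024, 152 (11.9%) were below 128 in sample 1 and none in any other stressed array. Among the unstressed arrays, samples 15 and 16 at day 8 correlated with the other 15 at 0.831 and 0.771, against 0.962 to 0.982 for the 4 day 6 arrays. The low arrays thus lay at day 6 in stressed mice and at day 8 in unstressed mice. Results are given with all arrays and, where they rest on these, without sample 1, or without samples 1 and 2. Leaving out samples 1 and 2 together, or samples 15 and 16, was chosen after seeing the data.

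**Figure D1:**
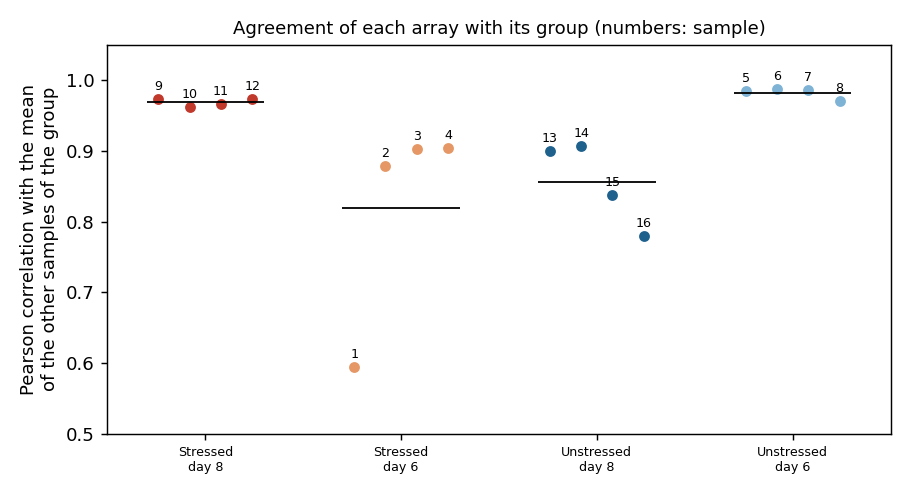
Pearson correlation (vertical axis, no unit) of each array with the mean of the other samples of its group, across 45281 probes. Points are samples with their numbers, horizontal lines are group means; sample 1 lies at 0.594, while the 4 stressed day 8 arrays lie between 0.962 and 0.973.

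No probe differed between day 8 and day 6 in stressed mice at an adjusted p under 0.05. Of the 45281 probes, limma called 0 (0%), with 0.795 as the smallest adjusted value. Before adjustment 1336 probes (2.95%) had a p under 0.05, of which 920 (2.03%) were higher and 416 (0.919%) were lower at day 8. With single arrays left out, that count was 818 without sample 11, 957 to 973 without sample 9, 10 or 12, 2407 without sample 4 and 2868 without sample 3, against 1339 without sample 2. The 4 day 8 samples lay entirely above the 4 day 6 samples for 681 probes (1.5%) and entirely below them for 798 (1.76%), or 3.27% in all. The median absolute log2 difference was 0.18. Without sample 1 it was 0.11, and limma called 0 probes, with 935 higher and 847 lower at an unadjusted p under 0.05 (3.94% in all). The median absolute log2 difference was 0.07 in the dimmest of 4 equal classes of probes and 0.41 in the brightest, and 0.06 and 0.18 without samples 1 and 2. The median standard error was 0.10 in the dimmest class and 0.42 in the brightest with all arrays. The share of probes without overlap was 3.52% in the dimmest and 3.28% in the brightest, so by this count brighter probes did not separate the days more often. The share at an unadjusted limma p under 0.05 was 0.41%, 1.94%, 5.12% and 4.33% from the dimmest to the brightest class.

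Without samples 1 and 2, limma called 1 probe (0.00221%). It belongs to Arr3, which encodes an arrestin of cone photoreceptors. The probe, ILMN_2717844, had intensities of 47.2, 45.1, 45.5 and 48.0 at day 8, against 67.2, 48.7, 174 and 171 at day 6 in samples 1 to 4. All 8 unstressed samples lay between 42.8 and 53.0. The value at day 6 was thus high in samples 3 and 4 and close to the day 8 level in sample 2. The log2 difference without samples 1 and 2 was -1.89 (SE 0.08, limma adjusted p = 0.0134). The day 6 group then had 2 arrays. At an unadjusted p under 0.05 the same fit had 2106 probes (4.65%), 863 higher (1.91%) and 1243 lower (2.75%).

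Among the probes with the smallest unadjusted p, the first with lower values at day 8 was Ppp1r1b, which encodes an inhibitor of protein phosphatase 1 found in neurons that receive dopamine and known best from the striatum. Probe ILMN_2954824 had intensities of 346, 218, 282 and 261 at day 8, against 733, 694, 624 and 531 at day 6. All day 8 samples lay below all day 6 samples, those of low agreement included. The log2 difference was -1.23 (SE 0.17, limma adjusted p = 0.795), and the exact two-sided permutation p of 0.0286 was the smallest that 4 against 4 samples can give. The unstressed day 8 samples had 296, 279, 1156 and 1721, against 1031, 644, 803 and 513 at day 6. In unstressed mice the groups overlapped, since samples 15 and 16 were high and samples 13 and 14 were low.

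Of the 8 probes of smallest p in each direction, 4 of the higher and 5 of the lower ones carry a gene name, and in all 16 the day 8 and day 6 samples did not overlap, each with the smallest exact permutation p of 0.0286. They were picked for their p, so this is a description. None passed limma's adjustment, and their adjusted p was 0.795. Among those lower at day 8, Rhox5, an X-linked homeobox gene of the reproductive tract, had intensities of 63.1, 59.2, 43.8 and 72.8 at day 8, against 148, 214, 164 and 128 at day 6. Its log2 difference was -1.45 (SE 0.21). Ntsr1, a receptor of the peptide neurotensin, had 90.4, 70.8, 132 and 74.4 at day 8, against 321, 175, 205 and 194 at day 6, a log2 difference of -1.29 (SE 0.26). Here the day 6 value was highest in sample 1, and the difference without samples 1 and 2 was -1.17. Vit, which encodes a protein of the extracellular matrix, had 51.2 to 63.9 at day 8, against 92.0 to 113 at day 6. Dync2h1, the heavy chain of the dynein motor that works in cilia, had 51.3 to 60.9 at day 8, against 83.5 to 146 at day 6. The log2 differences were -0.79 for Vit and -0.93 for Dync2h1.

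Among the probes with higher values at day 8, Zkscan5, a zinc finger protein of the nucleus, had the widest gap of those with a name. Its intensities were 196, 246, 284 and 289 at day 8, against 58.1, 111, 102 and 118 at day 6, with the lowest value in sample 1. The log2 difference was 1.42 (SE 0.25), and 1.19 without samples 1 and 2. Prrc2c, a proline-rich protein, had 255, 240, 234 and 200 at day 8, against 135, 106, 137 and 154 at day 6 (log2 difference 0.81, SE 0.14). Cbfb, the subunit that partners the Runx transcription factors, had 64.9 to 81.3 at day 8, against 46.8 to 50.9 at day 6. Plcz1, a phospholipase C known from sperm, had 80.9 to 109 at day 8, against 58.2 to 61.7 at day 6. Both were dim: in the row of Cbfb 5, and in that of Plcz1 10, of the 16 detection p columns were under 0.05. Their log2 differences were 0.61 for Cbfb and 0.66 for Plcz1. Of the 7 probes without a gene name, ILMN_2676606 had the largest log2 difference, at 1.25, and ILMN_1216153 the smallest in size, at -0.59. The fit without sample 9 added Inpp5e, a lipid phosphatase of the primary cilium, and 3 probes without a name. Inpp5e had 54.7 in sample 9 and 79.6 to 90.7 in the other day 8 samples, against 46.7 to 50.2 at day 6.

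**Figure D2:**
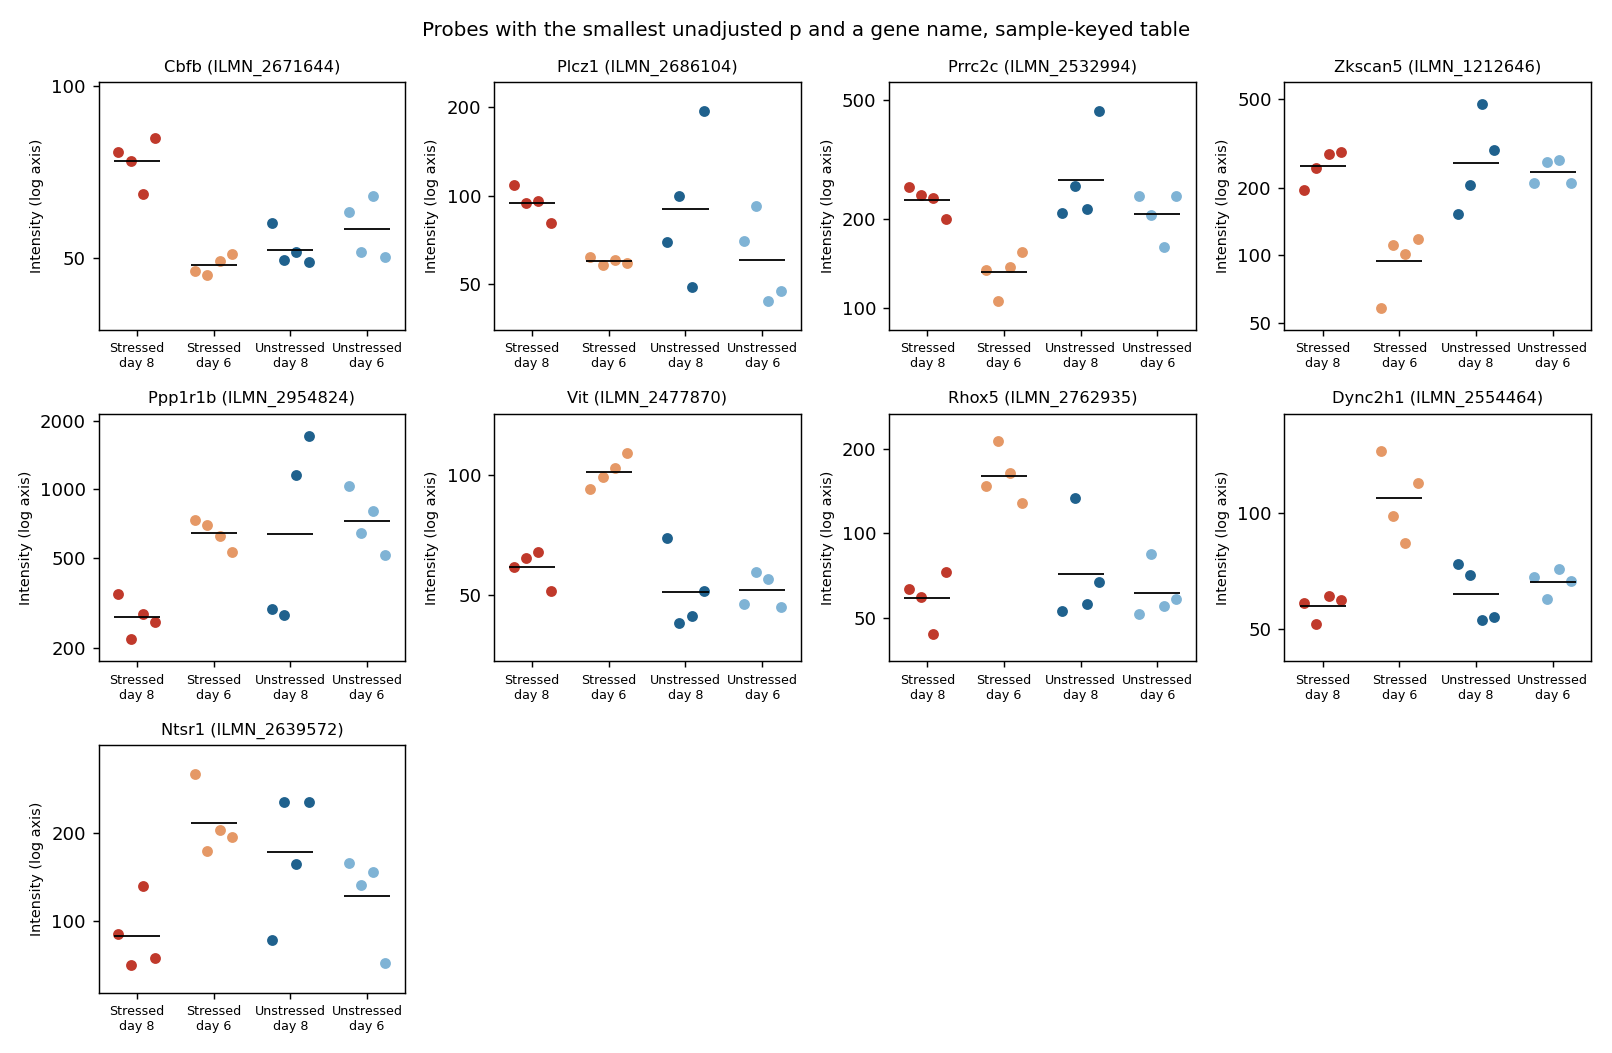
Intensity (log axis) of the 9 probes with a gene name among the 8 of smallest unadjusted p per direction. Points are samples and horizontal lines are means of the log values; in stressed mice the day 8 and day 6 points do not overlap in any panel, as the choice by p favours, while the unstressed points do overlap.

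Ppm1f, which appears in the title of the series, encodes a phosphatase that acts on calcium/calmodulin-dependent kinases. It had 3 probes, and none passed limma's adjustment or separated the days in stressed mice. The brightest, ILMN_1221199, with a detection p under 0.05 in 16 of 16 columns, had 228, 327, 229 and 403 at day 8, against 890, 313, 254 and 319 at day 6. The groups overlapped, and the value of 890 belonged to sample 1. Its log2 difference was -0.43 (SE 0.41, limma adjusted p = 0.795, exact permutation p = 0.457), and 0.02 without samples 1 and 2. ILMN_2792756 had 64.8 to 76.7 at day 8, against 58.8 to 86.5 at day 6, and ILMN_2729496 had 42.1 to 53.7, against 41.8 to 58.7. In unstressed mice ILMN_1221199 had 185, 143, 637 and 550 at day 8, against 192, 289, 224 and 241 at day 6. The high day 8 values were those of samples 15 and 16, the arrays of low agreement.

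Genes that mark the striatum, the tissue beside the central amygdala, were lower at day 8 in their summed level. The list held 5 genes, of which 4 (Drd1, Drd2, Ppp1r1b and Rgs9) had 7 probes. The summed intensity was 794 to 958 at day 8, against 1051 to 1624 at day 6, with no overlap in stressed mice. The Ppp1r1b probe described above was the brightest of the 7 in each stressed sample. Without it the sums were 541 to 621 at day 8, against 318 to 930 at day 6, with an overlap through sample 1. All 7 probes had negative log2 differences, with a median of -0.06 against -0.03 over all probes, and 1 of them was under an unadjusted p of 0.05, where 0.919% of all probes were under it and lower. With the lowest intensity subtracted before the logarithm, 6 of 7 were negative. Limma called 0 of the 7 after adjustment. Fewer cells of a type and less RNA per cell cannot be told apart in tissue punches.

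The median difference of the striatum probes was wider without samples 1 and 2, though not that of every probe. Without samples 1 and 2 the median log2 difference of the 7 probes was -0.42, against 0.01 over all probes. Those of Drd1 and of the 3 Ppp1r1b probes were -0.93, -0.99, -1.08 and -0.42. The Ppp1r1b probe at -1.08, ILMN_2954824, had -1.23 with all arrays. In 4 of the 7 the day 8 samples lay entirely below the 2 remaining day 6 samples, where 6.55% of all probes did so. Drd1, the D1 dopamine receptor, had 140, 123, 146 and 124 at day 8, against 55.9, 88.1, 253 and 253 at day 6. The day 6 values of samples 3 and 4 were thus above every day 8 value, and those of samples 1 and 2 were below. A second Ppp1r1b probe, ILMN_2651660, had 163, 131, 93.5 and 114 at day 8, against 52.1, 277, 278 and 214 at day 6, where sample 1 alone was low. Scn4b, a sodium channel subunit that was added after its values were seen, had 132, 169, 131 and 119 at day 8, against 51.3, 303, 418 and 302 at day 6. None of these passed limma's adjustment with or without the 2 arrays.

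In unstressed mice the same genes split the day 8 samples. Their summed level was 999 and 979 in samples 13 and 14 and 2489 and 3450 in samples 15 and 16 at day 8, against 1742 to 3164 at day 6, so the groups overlapped with all arrays. Without samples 15 and 16 all 7 log2 differences were negative, with a median of -0.97. In 5 of the 7 the 2 day 8 samples lay entirely below the day 6 samples, against 8.19% of all probes. Ppp1r1b had differences of -1.53 at ILMN_2651660 and -1.33 at ILMN_2954824 in that comparison, and Drd2, the D2 dopamine receptor, had -0.97. The part of the position of the punch in these differences was not tested.

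Probes of oligodendrocytes, the cells that make myelin, differed in their balance with the arrays used. With all arrays 6 of the 12 probes for Mbp, Mobp and Mog were higher and 6 were lower at day 8. Without sample 1, 10 of 12 were lower, with a median of -0.43, and without samples 1 and 2, 10 of 12 were lower, with a median of -0.53. In 7 of the 12 the day 8 samples then lay entirely below the day 6 samples, and in 1 entirely above, where 6.55% of all probes lay below and 6.51% above. Mog, a protein of the outer myelin surface, had 93.1, 102, 151 and 84.2 at day 8, against 108, 177, 233 and 208 at day 6 at probe ILMN_1259536, with an overlap only through sample 1. Its second probe, ILMN_2615034, had 92.9, 89.9, 105 and 91.7 at day 8, against 45.4, 140, 173 and 184 at day 6. The Mbp probe ILMN_3011353 ran the other way, with 244 to 314 at day 8, against 156 to 188 in samples 2 to 4 and 405 in sample 1 at day 6. In unstressed mice without samples 15 and 16, 11 of the 12 probes were lower at day 8, with a median of -0.40. After adjustment limma called 0 of the 12 in each of these fits.

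**Figure D3:**
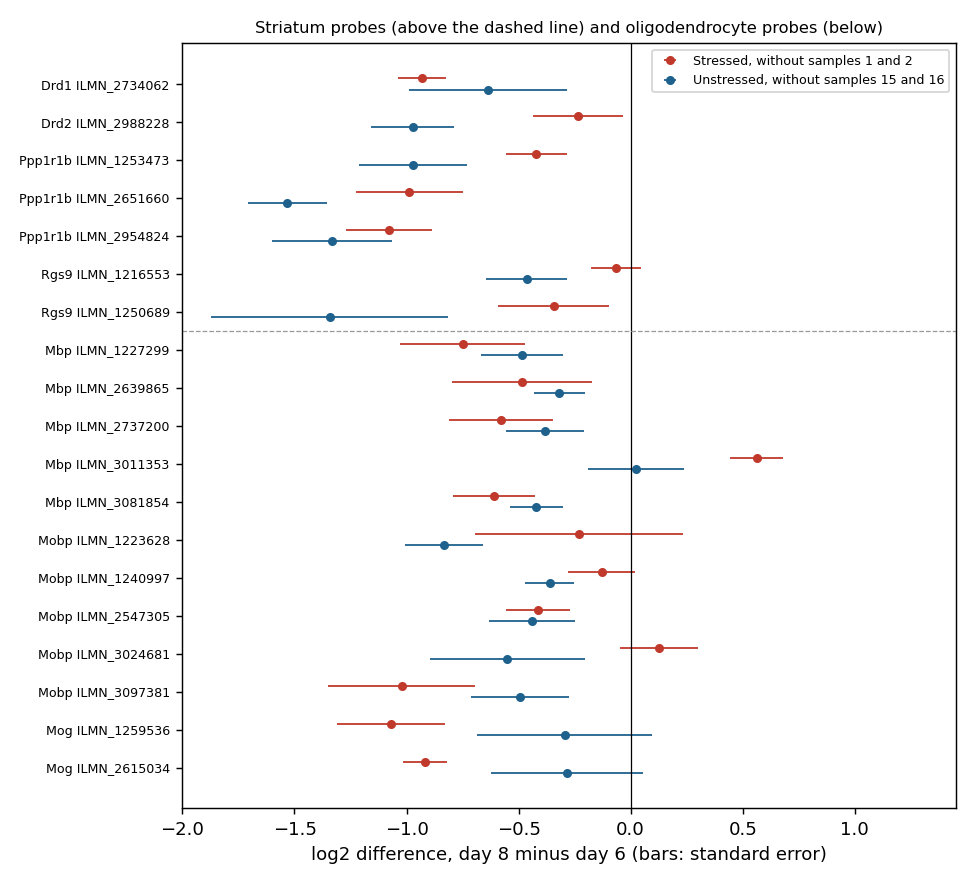
Log2 difference, day 8 minus day 6 (horizontal axis), of the striatum probes above the dashed line and the oligodendrocyte probes below it. Points are the values without samples 1 and 2 in stressed mice and without samples 15 and 16 in unstressed mice, and bars are standard errors from limma; all 7 striatum points lie below 0 in both.

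Markers of other cell types were read in the same way. The 7 microglia probes (Cx3cr1, P2ry12, Aif1 and C1qa) were all lower at day 8, with a median of -0.20, and none was under an unadjusted p of 0.05. Without samples 1 and 2 all 7 were again lower, with a median of -0.29, and 1 was under an unadjusted p of 0.05, where 2.75% of all probes were under it and lower. Without sample 1 alone 6 of 7 were lower, with a median of -0.33. Their summed level was 1093 to 1570 at day 8, against 1059 to 2283 at day 6, so the groups overlapped. Neuronal markers had a summed level of 8079 to 9393 at day 8, against 3729 to 7493 at day 6, with no overlap and the lowest value in sample 1. Of the 10 neuronal probes 1 was under an unadjusted p of 0.05 with all arrays, where 2.03% of all probes were under it and higher. That probe, Rbfox3 at ILMN_2505510, had 957, 1096, 891 and 969 at day 8, against 414, 529, 857 and 816 at day 6. Its log2 difference of 0.64 was 0.22 without samples 1 and 2. Choroid plexus probes were uneven within both groups: Ttr, a carrier of thyroid hormone made there, had 107, 3990, 57.5 and 2207 at day 8, against 114, 1398, 136 and 102 at day 6. The summed level of the 2 blood probes was 243 to 445 at day 8, against 204 to 430 at day 6. That of the 6 endothelial probes was 949 to 1029 against 770 to 1030, and that of the 7 astrocyte probes was 2529 to 4424 against 2184 to 3258. Without samples 1 and 2, 5 of the 7 astrocyte probes were lower at day 8, with a median of -0.05. In 3 of them the day 8 samples lay entirely below the day 6 samples, where 6.55% of all probes did so. All 6 choroid plexus probes were then higher, with a median of 0.32, and 2 lay entirely above, where 6.51% of all probes did so. Of the 10 neuronal probes 8 were higher, and the endothelial ones split into 3 higher and 3 lower. The part of these cell types in the other differences was not tested.

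**Figure D4:**
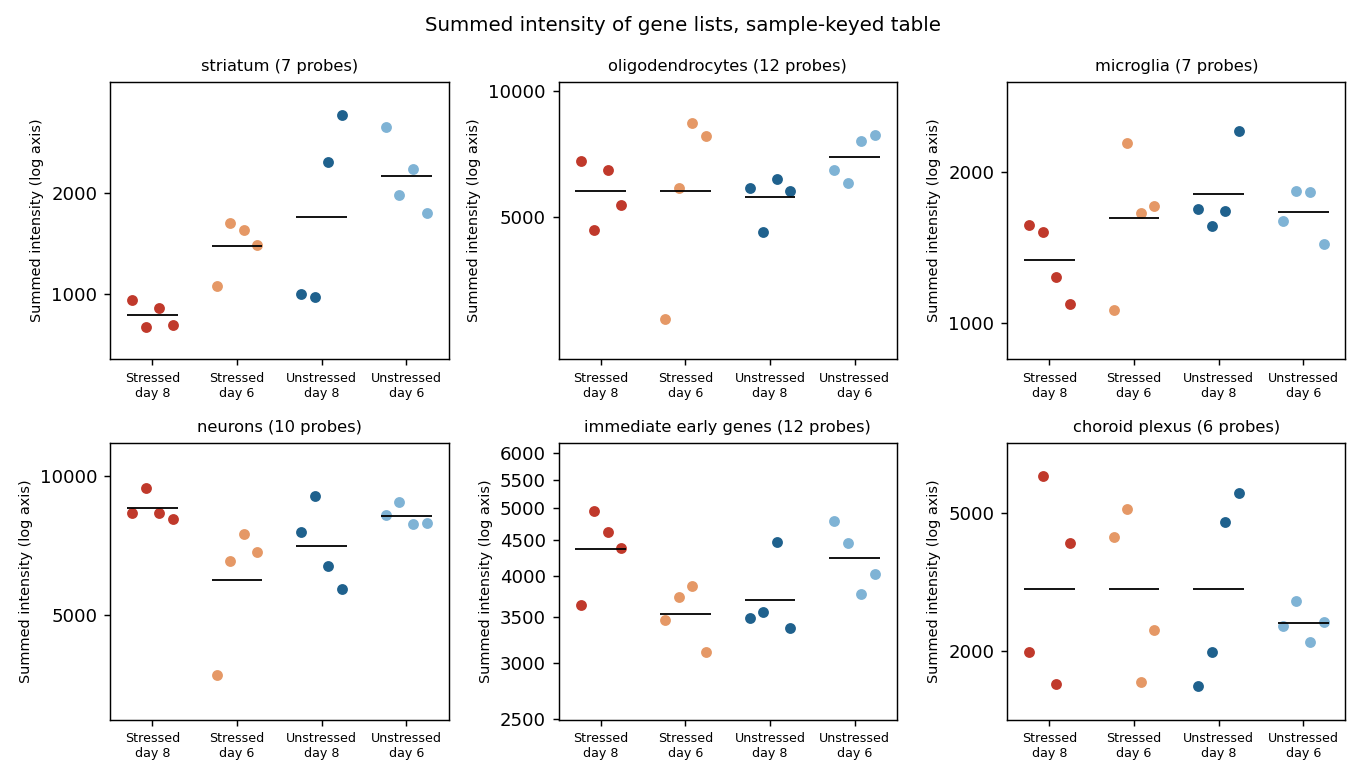
Summed intensity (log axis) of 6 gene lists in each sample; horizontal lines are means of the log values. In stressed mice the striatum sum lies between 794 and 958 at day 8 and between 1051 and 1624 at day 6, and the oligodendrocyte sum of sample 1 is 2860.

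Immediate early genes, which are switched on for a short time by neuronal activity, were represented by 12 probes for 10 genes. Of these, 6 were higher and 6 lower at day 8, and 2 of the higher ones were under an unadjusted p of 0.05, where 2.03% of all probes were under it and higher. Without sample 1 the split was 9 higher and 3 lower, and without samples 1 and 2 it was 10 higher and 2 lower, with a median of 0.14. Fosb, a subunit of the AP-1 transcription factor, had 180, 188, 186 and 270 at day 8, against 48.8, 65.0, 108 and 145 at day 6. The groups did not overlap. Its log2 difference was 1.28 (SE 0.34, limma adjusted p = 0.795, exact permutation p = 0.0286), and 0.70 without samples 1 and 2, the 2 lowest day 6 samples. Egr1, a zinc finger transcription factor, had 2449, 3306, 3306 and 2811 at day 8, against 1607, 2629, 2483 and 1933 at day 6, with an overlap between sample 9 and samples 2 and 3. Its log2 difference was 0.47, and 0.43 without samples 1 and 2. In unstressed mice 5 of the 12 probes were higher and 7 lower at day 8, with a median of -0.04. Egr1 was among the lower ones there, with 2179 to 2453 at day 8, against 2605 to 3069 at day 6, a log2 difference of -0.29. The difference of the 2 day differences was 0.76 (SE 0.21, limma adjusted p = 0.523). Fos, Arc and Junb (ILMN_1220034) had their highest stressed values at day 6 in sample 1, at 201, 424 and 295. The part of that array in these levels was not tested.

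Genes that respond to glucocorticoids and genes of fast transmission had no probe under an unadjusted p of 0.05 in stressed mice. Of the 14 probes of the glucocorticoid list 10 were higher, with a median of 0.21, and 6 were higher without samples 1 and 2. Fkbp5, a chaperone that restrains the glucocorticoid receptor, had 227, 311, 217 and 239 at day 8, against 48.1, 61.7, 224 and 263 at day 6. Its log2 difference of 1.10 became 0.02 without samples 1 and 2. Of the 20 probes for GABA and glutamate transmission 15 were higher with all arrays and 10 without samples 1 and 2. Gad1, an enzyme that makes GABA, had 1483 to 1801 at day 8, against 1403 to 2069 at day 6 at probe ILMN_1234988. In unstressed mice 12 of the 14 glucocorticoid probes were lower at day 8, with a median of -0.29, against 0.04 over all probes. Without samples 15 and 16, 13 of the 14 were lower. Of the 20 transmission probes 15 were lower in unstressed mice with all arrays, and 8 without samples 15 and 16.

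Stress peptides and their receptors had 23 probes for 14 genes, of which 9 were higher and 14 lower at day 8. The 2 under an unadjusted p of 0.05 were higher, against 2.03% of all probes. Adcyap1, the peptide PACAP, had 172, 237, 358 and 336 at day 8, against 50.1, 156, 190 and 107 at day 6 (log2 difference 1.24, SE 0.44). Vip, a related peptide of interneurons, had 103, 290, 106 and 137 at day 8, against 50.5, 55.5, 91.3 and 74.3 at day 6 at probe ILMN_2943387 (log2 difference 1.13, SE 0.36). The other Vip probe, ILMN_1243637, had a log2 difference of -0.60, with 330 in sample 1, so the probes of this gene disagreed. Crh, corticotropin-releasing hormone, had 110, 56.6, 86.7 and 60.7 at day 8, against 45.0, 44.3, 92.8 and 66.0 at day 6, and the groups overlapped. Sst, the peptide somatostatin, had 893 to 1073 at day 8, against 1472, 1450, 620 and 639 at day 6. It lay below samples 1 and 2 and above samples 3 and 4, and the log2 difference was 0.08 with all arrays and 0.69 without samples 1 and 2. The lowest day 6 values of Adcyap1 and of Vip at ILMN_2943387 were those of sample 1. Without samples 1 and 2, 11 of the 23 probes were higher and 12 lower, and the largest log2 difference was 0.89. In that fit 1 probe was under an unadjusted p of 0.05 and higher, against 1.91% of all probes. Over these lists limma called 0 probes after adjustment.

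In unstressed mice limma also called 0 of 45281 probes between the days (lowest adjusted p = 0.610), with 2751 (6.08%) at an unadjusted p under 0.05. Without samples 15 and 16 there were 0 calls and 3234 such probes (7.14%), 1687 higher (3.73%) and 1547 lower (3.42%). The test of whether the day difference itself differed between stressed and unstressed mice called 0 probes (lowest adjusted p = 0.523), with 3549 (7.84%) at an unadjusted p under 0.05. Across probes the day differences of stressed and unstressed mice, which share no sample, correlated at -0.39 (Pearson) with all arrays and at 0.09 without samples 1, 2, 15 and 16. Probes are not independent replicates, and no test was made of these values. The smallest interaction p belonged to Vrk1, a kinase of the nucleus, with 60.1 to 69.5 at day 8, against 48.9 to 61.3 at day 6 in stressed mice, and 44.9 to 60.3 at day 8, against 75.0 to 87.0 at day 6 in unstressed mice. Acadl, an enzyme of mitochondrial fatty acid oxidation, had 81.1 to 97.7 at day 8, against 111 to 129 at day 6 in stressed mice, and 99.6 to 171 at day 8, against 76.4 to 103 at day 6 in unstressed mice. The difference of the day differences was 0.97 for Vrk1 and -0.96 for Acadl, each with an adjusted p of 0.523 in limma. Without samples 9, 13 and 14, limma called 1822 probes, and the adjusted p was 0.00911 for Vrk1 and 0.0257 for Acadl. That choice was made in the plan, which took the headed columns as the main source. In the sample-keyed table these 3 arrays correlated at 0.977, 0.972 and 0.974 with the other 15. The fit leaves samples 15 and 16, the arrays of low agreement, as the unstressed day 8 group. Without samples 1, 2, 15 and 16 limma called 1 probe, for Arr3.

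In the second version, with the columns as the other table heads them, limma called 0 of 45281 probes between the columns headed stressed day 8 and stressed day 6 (lowest adjusted p = 0.476). Before adjustment 2227 probes (4.92%) had a p under 0.05, 1203 higher and 1024 lower. The headed columns did not overlap for 1539 probes (3.4%). The column headed SAMPLE 9 correlated at 0.895 with the mean of the other 3 of its group, against 0.975 to 0.978 for these, and the columns headed SAMPLE 1 to SAMPLE 4 gave 0.956 to 0.975. The median absolute log2 difference was 0.09.

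The probes of smallest p in this version were other ones. ATP6, the mitochondrially encoded subunit of ATP synthase, had 4903, 3889, 3932 and 4262 in the day 8 columns, against 2269, 2375, 2511 and 2389 in the day 6 columns. Elof1, a transcription elongation factor, had 246, 182, 208 and 209 in the day 8 columns, against 109, 116, 118 and 119 in the day 6 columns. Neither overlapped, as the choice by p favours. The log2 differences were 0.83 for ATP6 and 0.86 for Elof1, each with a limma adjusted p of 0.476. The other 6 higher ones were Sec22b (0.67), Ubl5 (0.82), Rpl39 (0.92), Snap25 (0.65), Idh3a (0.47) and Timm10b (0.62). Of these, Rpl39 is a ribosomal protein, Snap25 a protein of synaptic vesicle release, Idh3a a citric acid cycle enzyme and Timm10b a part of mitochondrial protein import. The lower ones were Dennd4a (-0.44), the RNA helicase Ddx6 (-0.55), the general transcription factor subunit Gtf2a1 (-0.61), the growth factor receptor Flt1 (-0.64), the cytokine Kitl (-0.75), the kinases Cdc42bpa (-0.57) and Dgke (-0.76), and a probe without a name (-0.48). Their adjusted p was 0.938.

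Without the column headed SAMPLE 9, limma called 1 probe (0.00221%), for the ribosomal protein Rpl24 (ILMN_2936118). It had 171 in the column headed SAMPLE 9 and 549, 583 and 573 in the other day 8 columns, against 228, 205, 242 and 226 in the day 6 columns. Its log2 difference was 1.34 without that column (SE 0.08, limma adjusted p = 0.0179) and 0.90 with it (adjusted p = 0.947). At an unadjusted p under 0.05 that fit had 2682 probes (5.92%), 1595 higher and 1087 lower. Bdnf, the neurotrophin of activity-dependent plasticity, had 145 in the column headed SAMPLE 9 and 56.6, 62.4 and 70.6 in the others, against 144, 133, 106 and 125 in the day 6 columns. Its limma adjusted p was 0.365 without that column and 0.947 with it. Gabrb1, a subunit of the GABA-A receptor, had 296, 518, 530 and 578 in the day 8 columns, against 808, 804, 721 and 799 in the day 6 columns. Fam120c had 62.8, 147, 114 and 125 in the day 8 columns, against 205, 247, 230 and 228 in the day 6 columns. Both lay lower at day 8 without overlap, as their choice by p favours.

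**Figure D5:**
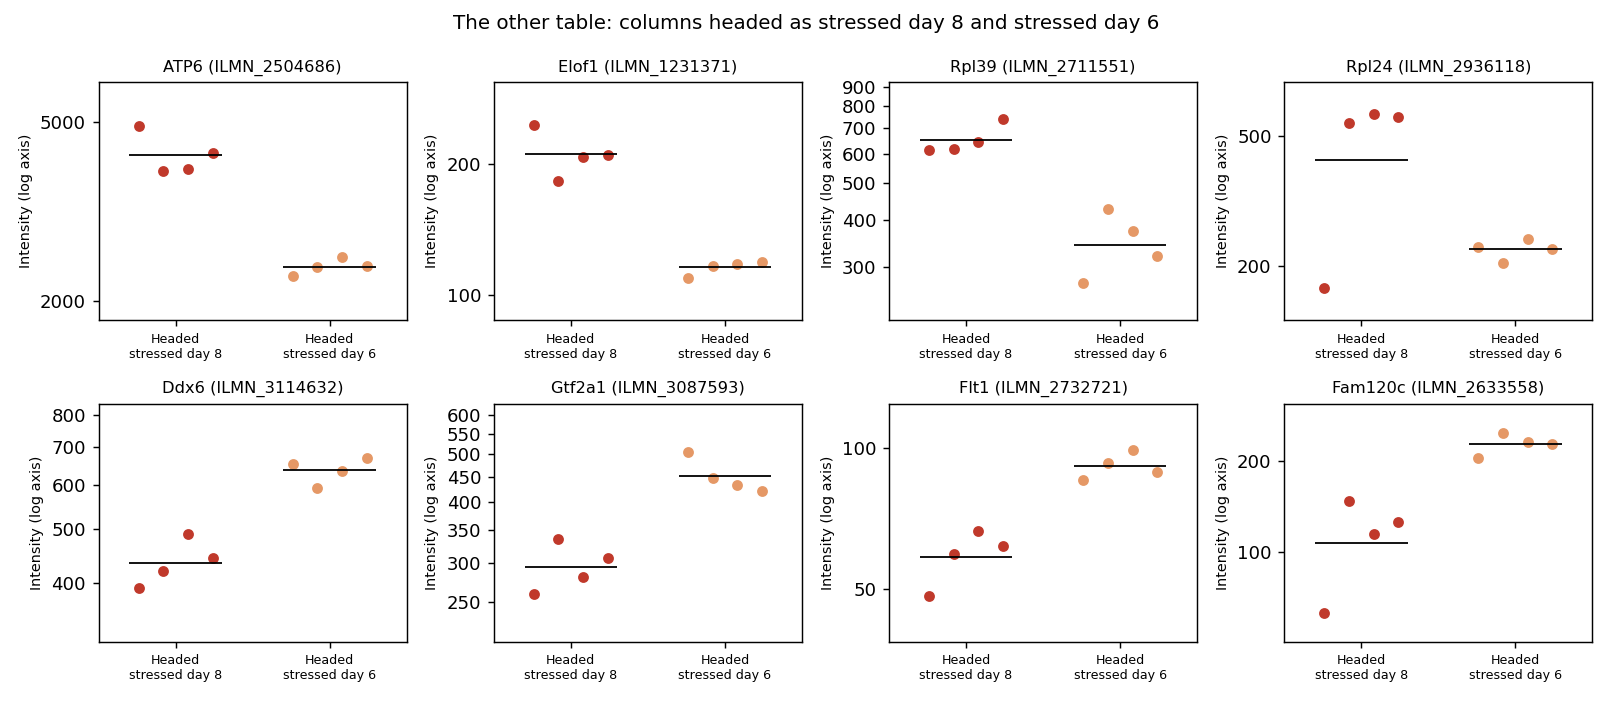
Intensity (log axis) of 8 probes in the columns headed stressed day 8 and stressed day 6 of the other table; points are columns and horizontal lines are means of the log values. For Rpl24 the column headed SAMPLE 9 lies at 171, below the day 6 columns, and the other 3 lie at 549 to 583.

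The versions differed in the direction of the striatal genes. In the headed columns all 7 striatum probes were higher at day 8, with a median log2 difference of 0.39, and 6 of 7 without the column headed SAMPLE 9. Ppp1r1b at ILMN_2954824 had 1222, 561, 325 and 477 in the day 8 columns, against 158, 177, 325 and 544 in the day 6 columns, with an overlap. Ntsr1 had a log2 difference of 1.04, against -1.29 in the sample-keyed table. The Ppm1f probe ILMN_1221199 had a difference of 0.10 (limma adjusted p = 0.977).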

How the data were processed

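Total RNA of mouse amygdala punches was labelled as biotinylated cRNA and measured on Illumina BeadArrays, per the labels' protocols. The authors deposited intensity values on a linear scale in 2 tables, from 35.5 to 22798 on each array, with medians of 60.1 to 60.7 in the sample-keyed table. Background correction and normalization are not given in the sources used here. Detection p-values, named so per the file headers, carry no sample name and served to check the tables and to filter probes.

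The plan took the headed columns as the main source. The sample-keyed table took their place after the tables were found to disagree. Members and gene lists were chosen with earlier results of these data known. Of the probes, 34885 had 1 gene symbol in the platform annotation, 18 several and 10378 none; 34807 matched a RefSeq gene ID.

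The log2 intensities of all 45281 probes were fitted with limma 3.58.1 (lmFit, eBayes) in R 4.3.3, without a filter, on the 8 stressed arrays, the 8 unstressed arrays, or all 16 for the interaction. P-values were two-sided and adjusted by Benjamini-Hochberg over all probes, with a threshold of 0.05. Exact permutation tests ran over 70 assignments. Named were the 8 probes of smallest p per direction, 4 per direction without sample 9, 2 per direction for the interaction, the listed genes and Ppm1f. The same rule named probes of the headed columns. Other values were computed in Python 3.11.15 (numpy 2.4.6, pandas 2.3.3, scipy 1.17.1). The fits were also run on simulated arrays with independent noise for each probe. Such arrays hold no deviation of a whole array like that of sample 1, so they do not test the fits for it. Arrays give no counts, and 4 arrays per group limit the precision. Alternatives covered left-out arrays, background, normalization, array weights, eBayes settings, filters and the source table.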

Additional observations from a re-analysis of the deposited data

Results flagged for a closer look

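Sample 1 lay far from the other stressed day 6 samples in its correlation with its group, at 0.594 against 0.878 to 0.905. Of 112 sets of 4 samples examined, over the groups and 27 named probes, 9 had 1 sample this far from the other 3. The nominal rate of the rule is about 1 in 20. It is no measure of chance here, since the sets share arrays and most of the probes were picked for their p. Sample 1 was that sample for ILMN_3025162 (80.9, against 99.6 to 103 in the others), for ILMN_1216153 (86.9, against 65.2 to 67.9) and for ILMN_2450117 (50.9, against 58.4 to 59.5), all at stressed day 6. Sample 4 stood apart for ILMN_2542331, with 69.7 against 43.6 to 46.9. In the unstressed groups, sample 13 had 108 for ILMN_3025162, sample 15 had 284 for ILMN_2542331, sample 8 had 75.0 for Vrk1, and sample 6 had 74.7 for the dim Ppm1f probe ILMN_2729496. Ccdc134 went opposite ways without overlap in the 2 arms. It had 101, 81.4, 108 and 93.6 at day 8, against 60.2, 66.2, 64.3 and 59.5 at day 6 in stressed mice, a log2 difference of 0.61. In unstressed mice it had 71.8, 73.8, 46.5 and 45.6 at day 8, against 92.1, 111, 88.6 and 119 at day 6, a log2 difference of -0.82. The test of the difference gave 1.43 (SE 0.24, limma adjusted p = 0.523).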

How the results depend on the processing

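No paired analysis was possible because the labels give nothing that links samples of different groups. In limma the count of called probes between the stressed days stayed at 0 with each single array left out, with other background, normalization, weights, eBayes settings and filters, with all 16 arrays in 1 fit, and with the headed columns. It was 1 without samples 1 and 2, and 1 in the headed columns without SAMPLE 9. Leaving out each headed column gave 0 to 1 calls. The counts at an unadjusted p under 0.05 ran from 818 to 2868 as single arrays were left out. In unstressed mice the count was 10335 without samples 13 and 14, which leaves samples 15 and 16, the arrays of low agreement, as day 8. The interaction count was 1822 without samples 9, 13 and 14, and 1 (Arr3) without samples 1, 2, 15 and 16. For unstressed mice and for the interaction, counts before adjustment ran from 1574 to 6954 and from 2056 to 6407 with 1 array left out. The causes were not tested.

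Probes without overlap numbered 1479 with all arrays and 2370 to 4056 with 1 array left out, which by itself makes separation easier; they numbered 5911 without samples 1 and 2 and 3287 in the headed columns without SAMPLE 9. The median absolute log2 difference in stressed mice ran from 0.11 to 0.23 with 1 array left out. It was 0.11 with 50 added, 0.35 in the brighter probes, above the median,, 0.10 without samples 1 and 2, 0.094 in the headed columns and 0.089 without SAMPLE 9. In unstressed mice, where all arrays gave 0.18, it ran from 0.14 to 0.23 with 1 array left out, and was 0.11 with 50 added, 0.36 in the brighter probes, 0.32 without samples 13 and 14, and 0.10 without samples 15 and 16.

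For the probes named in the stressed comparison, 423 recomputed differences kept their direction and 23 reversed, 20 of them in the headed columns. Many of the 423 could not have reversed, so this tally is no measure of robustness. Other eBayes settings, filters and the fit to all arrays leave a difference as it was. For the probes of smallest p with all arrays the days did not overlap, so leaving out arrays could not reverse them. With all headed columns and then without SAMPLE 9, the log2 differences were -0.026 and -0.017 for ILMN_2676606, 1.11 and 0.74 for Ppp1r1b, 0.091 and 0.24 for Rhox5, 1.04 and 0.62 for Ntsr1, -0.027 and -0.070 for Inpp5e, -0.43 and -0.37 for ILMN_2450117, 0.10 and 0.21 for Ppm1f ILMN_1221199, and -0.014 and -0.051 for Ppm1f ILMN_2792756. With all headed columns they were -0.023 for Plcz1 and 0.064 for ILMN_1253224, and without SAMPLE 9 they were 0.052 for ILMN_3025162 and -0.16 for ILMN_2743082. In the sample-keyed table Ppm1f ILMN_1221199 was 0.019 without samples 1 and 2, and Ppm1f ILMN_2792756 ran from -0.059 without sample 1 to 0.13 without sample 2, with -0.050 without sample 3. The 4 arrays per group, background left in dim probes, and the open choice between the tables limit these results.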

Other observations

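A set of probes had lower values at day 8 in both arms once samples 1, 2, 15 and 16 were left out. At an unadjusted p under 0.05 in each arm, 97 probes were lower in both, or 7.8% of the 1243 lower ones in stressed mice and 6.27% of the 1547 in unstressed mice. There were 64 higher in both, or 7.42% of 863 and 3.79% of 1687, and 72 that went opposite ways. Of all probes, 2.75% were lower in stressed mice and 3.42% in unstressed mice at that threshold, and 1.91% and 3.73% were higher, in the same order. The arms share no sample. The probes named here were chosen after their values were seen, and no test was made of the overlap. Pde10a, a phosphodiesterase of striatal neurons, had log2 differences of -0.88 in stressed mice and -1.08 in unstressed mice. Tac1, which encodes substance P, had -0.55 and -1.01 in the same order, Pdyn, the dynorphin precursor, -0.60 and -0.55, and Ephb1, an ephrin receptor, -1.10 and -1.17. Among those higher in both, Neurod2, a transcription factor of glutamatergic forebrain neurons, had 0.91 in stressed mice and 0.62 in unstressed mice. Arpp21 had 0.52 and 0.40 and Cnr1 had 0.48 and 0.34, in the same order. The genes named here do not stand for all 97 lower or all 64 higher probes.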
